A study of Mus musculus with 4 samples.

Results

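The heat shock chaperones described here are 10 of the 31053 genes counted in stromal vascular cells of mouse subcutaneous fat: Hspa1a, Hspa1b, Hspa8, Hsph1, Dnajb1, Dnaja1, Hsp90aa1, Hspb1, Hspd1 and Hspe1. They were chosen by name, with earlier results of these data known, and all 10 were measured in every comparison. The tissue came from female mice with Cth (Cth+/+) or without it (Cth-/-), fed a control diet or a diet without cystine for 4 days. Cth encodes cystathionine gamma-lyase, which makes cysteine from cystathionine. Each genotype was fed each diet, which gives 4 groups, and each group was 1 droplet-based 3' RNA library from pooled depots, digested after the lymph nodes had been taken out. The labels give neither the number nor the age of the animals. They call the diet cysteine free where the protocol calls it cystine free, and the name in the protocol is used.

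Heat shock proteins bind unfolded or nascent proteins and help them to fold, to refold after damage or to be degraded. The Hsp70 proteins work in cycles with J-domain proteins, which hand them clients, and with nucleotide exchange factors, which release them, and Hsp90 finishes the folding of kinases and receptors. In the cytosol and nucleus, several of these genes are switched on by the transcription factor HSF1 when unfolded proteins accumulate, after heat, oxidants or toxins. The mitochondrial pair Hsp60 and Hsp10 folds proteins inside the mitochondrion, where unfolded protein is sensed by another pathway.

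Gene levels are counts of UMIs (unique molecular identifiers, about 1 per captured RNA molecule) of a gene per 1000000 UMIs of the same barcodes, written CPM. With 1 library per group there is no replicate and no test. Where counts are called measured, the gene had 10 CPM or more in either library. Intervals are 95% exact intervals of counting error only, and "at least 1.5-fold" is a size. A difference between libraries cannot be told apart from a difference between the animals, the digestions or the runs. Both diet comparisons share a library with both genotype comparisons, so the 4 comparisons are not independent, and their values stand side by side.

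The libraries held 4394 to 7312 barcodes and 15948807 to 30944977 UMIs, with medians of 2535 to 3379 UMIs per barcode. Cth gave 9 and 11 UMIs in the Cth+/+ control and cystine-free libraries and 0 in both Cth-/- libraries, where 3 UMIs would be 0.114 and 0.188 CPM. Any 2 libraries shared 40 to 69 barcode sequences (0.819% to 1.18% of the smaller). Barcodes were sorted by 6 rules that use none of the 10 genes. A progenitor barcode had at least 0.2% of its UMIs from Dcn, and an endothelial one at least 3 UMIs of Cdh5, Pecam1 and Cldn5 together. A phagocyte barcode had at least 4 of Csf1r, Cd68 and Lyz2, a T cell barcode 2 of Cd3d, Cd3e and Cd3g, and an epithelial one 5 of Krt8 and Krt18. The last rule, at least 4 UMIs of Rgs5 and Notch3, was meant for mural cells. It took 121 to 561 barcodes, 76.1% to 92.6% of which passed another rule too, and 5 independent endothelial markers summed to 1190 to 2519 CPM there against 486 to 888 for 5 mural markers. It is therefore called the Rgs5/Notch3 gate. The T cell gate of the Cth-/- libraries held 116 and 237 barcodes, and every value in it is coarse. The 9 adipocyte markers summed to 130 to 270 CPM in the other 3 libraries, against 6849 in Cth-/- mice on the cystine-free diet, and all 9 had UMIs in each library. The libraries are listed below with Cth+/+ before Cth-/- and, within a genotype, the control before the cystine-free diet.

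Stretches upstream of 6 of the genes are shown because a full match to the heat shock element lies near a chaperone with a large difference between diets and near the mitochondrial pair, which had little. HSF1 binds arrays of the units GAA and TTC spaced by any 2 bases, so both strands were searched for 3 units, GAANNTTCNNGAA or TTCNNGAANNTTC, in RefSeq's windows of 250 bases before to 50 after each start (GRCm38.p6). The letters occur in 198 of 32851 such windows (0.603%), and with at most 1 of the 9 fixed bases different in 2372 (7.22%). Of the 8 chaperones with a window, the full letters occur near Hsph1 and in the stretch that serves Hspe1 and 1 of 2 starts of Hspd1. The looser match occurs near Hspa1a, Hspa1b, Hspb1 and 1 of 3 starts of Dnaja1, and neither occurs in the windows of Dnajb1. Below, capitals mark the fixed bases of each full or looser match, the base that differs included, overlapping matches run together, and each stretch of 80 bases lies upstream of a start in the RefSeq table and is written 5′ to 3′ on the gene's strand. GENCODE puts the start of Dnaja1 at 40722150, before the stretch shown, and that of Hsph1 at 149636376, within it.
Hspa1a, chr17:34972239-34972318, minus strand: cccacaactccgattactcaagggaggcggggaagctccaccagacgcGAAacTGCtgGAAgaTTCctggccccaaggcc
Hsph1, chr5:149636338-149636417, minus strand: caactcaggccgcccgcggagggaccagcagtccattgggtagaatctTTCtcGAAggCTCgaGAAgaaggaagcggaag
Hspb1, chr5:135887754-135887833, plus strand: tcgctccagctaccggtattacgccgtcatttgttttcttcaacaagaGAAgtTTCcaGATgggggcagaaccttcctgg
Dnaja1, chr4:40722291-40722370, plus strand: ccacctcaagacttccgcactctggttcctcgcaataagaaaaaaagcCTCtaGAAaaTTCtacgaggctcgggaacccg
Hspe1, chr1:55088011-55088090, plus strand: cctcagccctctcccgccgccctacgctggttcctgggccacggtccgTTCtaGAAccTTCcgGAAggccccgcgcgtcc

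The stretch of Hspa1b (chr17:34959321-34959400, minus strand) has the same letters as that of Hspa1a, and their whole windows differ at 4 of 300 bases. The starts of the 2 genes lie 12918 bases apart. Although 49.3% of the 90-base stretches of the Hspa1a transcript also occur in Hspa1b, 0 of 411 do in its last 500 bases, where 3' reads fall, so reads from the ends of these RNAs can be told apart and reads from further inside cannot. The 2 genes are therefore given both apart and summed. Hspe1 and Hspd1 lie head to head with annotated starts 111 bases apart. The full match of Hsph1 lies downstream of both RefSeq starts and is not printed, and the stretch shown holds the looser one. A match is a description of letters and shows no binding.

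In Cth-/- mice the 8 chaperones of the cytosol and nucleus were higher on the cystine-free diet than on the control diet, in all barcodes and in the progenitor and phagocyte gates alike, and the 2 mitochondrial ones stayed within 1.5-fold there. Over all barcodes 8 of the 10 were at least 1.5-fold higher and 0 lower, where 10.4% of 8983 measured genes were higher and 9.68% lower. The median log2 ratio of the 10 was 1.01, and that of all measured genes 0.03. In progenitor barcodes 8 were higher (8.31% of genes), in phagocytes 8 (5.73%) and in endothelial barcodes 7 (5.32%). The Rgs5/Notch3 gate had 8 (17.5%), T cells 5 (17.7%), and epithelial barcodes 5 higher (9.6%) and 1 lower, Hspd1 (10.4%). The medians of the 10 were 1.11 in progenitors, 1.15 in phagocytes, 0.79 in endothelial barcodes, 0.99 in the Rgs5/Notch3 gate, 0.45 in T cells and 0.51 in epithelial barcodes, and those of all genes lay between -0.08 and 0.06. In T cells and the Rgs5/Notch3 gate the share of all genes past this size was high as well. The count of 8 in the Rgs5/Notch3 gate was 5 without the deepest 1% of barcodes, 5 when barcodes were thinned to 1000 UMIs and 3 in barcodes of that gate alone, where Hspa1a was -0.38 and Hsph1 -5.24. The count of 5 in T cells was 3 with every barcode weighing the same. Adipocyte markers were higher in the same library within every gate. Their sum in Cth-/- was 97.4 CPM on the control and 416 on the cystine-free diet in progenitors, 1824 and 2982 in endothelial barcodes, and 129 and 1710 in phagocytes. In T cells it was 123 and 500, in the Rgs5/Notch3 gate 1179 and 2371, and in epithelial barcodes 104 and 2242. Without the barcodes with at least 5 UMIs of Adipoq, the adipocyte hormone adiponectin, the counts were the same over all barcodes and in all 6 gates, and the part of the adipocyte RNA in other barcodes was not tested.

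**Figure D1:**
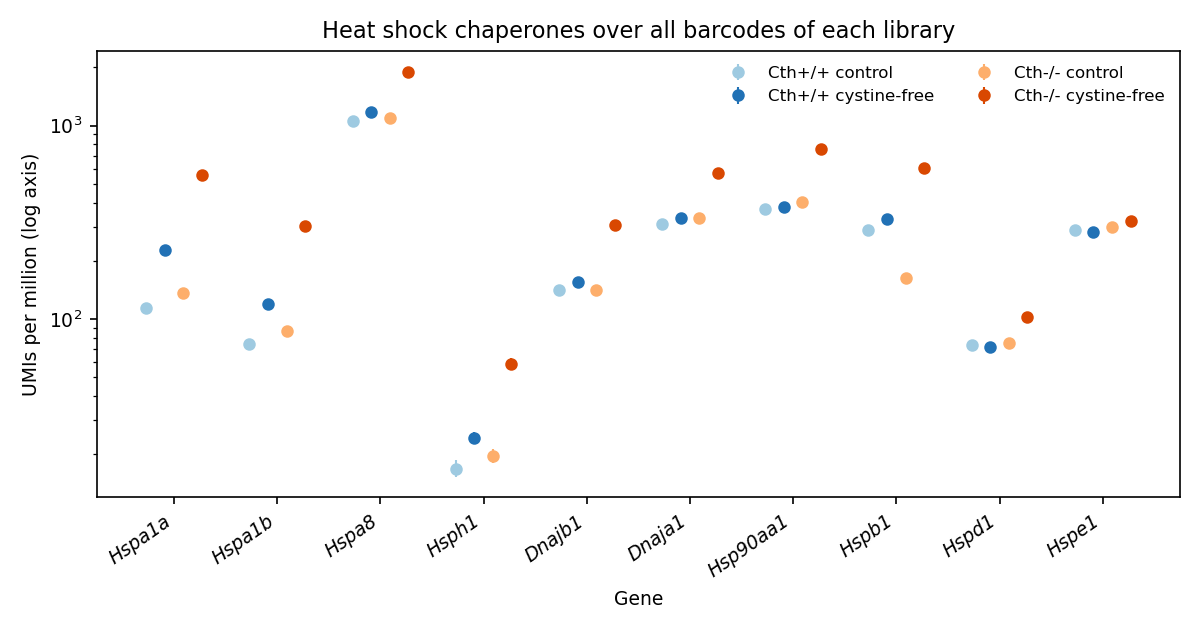
CPM (log axis) of each chaperone over all barcodes of the 4 libraries, with 95% counting intervals, most of which are narrower than the points. The Cth-/- cystine-free library is the highest for all 10 genes, by a small margin for Hspe1 (321.7 against 300.2 in Cth-/- control).

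Hspa1a and Hspa1b encode the stress-inducible Hsp70 proteins. Over all barcodes Hspa1a stood at 114.5 (control) and 228.6 (cystine-free) CPM in Cth+/+ and at 136.7 and 558.7 in Cth-/-. Hspa1b stood at 74.4, 119.6, 86.9 and 303 in the same order, which is kept from here on. For both genes the Cth-/- cystine-free library was highest and the Cth+/+ cystine-free library next. The log2 ratio of the diet in Cth-/- was 2.02 (1.98 to 2.09) for Hspa1a and 1.79 (1.73 to 1.87) for Hspa1b, and in Cth+/+ it was 0.99 (0.93 to 1.06) and 0.68 (0.60 to 0.77).

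The order of the libraries for Hspa1a held in progenitor barcodes, but the gap between the 2 cystine-free libraries was small there. Progenitors had 81.8, 217.4, 89.1 and 276.2 CPM in the order above. Endothelial barcodes had 144, 232.1, 249.2 and 900.4, and phagocytes 231.4, 327, 296.9 and 1144.5. So in phagocytes and endothelial barcodes the Cth-/- cystine-free library stood apart from the other 3, and in progenitors both cystine-free libraries stood apart from both control libraries. The log2 ratios of the diet in progenitors were 1.62 (1.53 to 1.74) in Cth-/- and 1.40 (1.31 to 1.52) in Cth+/+, a difference of 0.22. The corresponding difference was 1.16 in endothelial barcodes. Epithelial barcodes had 84.8, 169.8, 94.9 and 381.5, and the Rgs5/Notch3 gate 171.4, 269.2, 189.8 and 752.3. T cells had 107.7, 79.2, 46.5 and 191.1, the lowest of the gates in 3 of the 4 libraries, with a log2 ratio of 2.02 in Cth-/- whose interval ran from 1.24 to 2.95.

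By its median over the 4 libraries Hspa1a followed the order phagocytes (312), endothelial barcodes (240.7), the Rgs5/Notch3 gate (229.5), progenitors (153.3), epithelial barcodes (132.4) and T cells (93.5), and the ranges of all neighbours in that order overlapped, while those of phagocytes (231.4 to 1144.5) and T cells (46.5 to 191.1) did not. Hspa1b in phagocytes was 108.7, 153.9, 145.3 and 637.7 CPM, a log2 ratio of the diet of 2.13 in Cth-/- and 0.50 in Cth+/+. Of its gate values in T cells, 46, 52.3, 16.6 and 116.1, the low one belongs to the Cth-/- control library, and the ratio of 2.73 had an interval from 1.53 to 4.47.

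**Figure D2:**
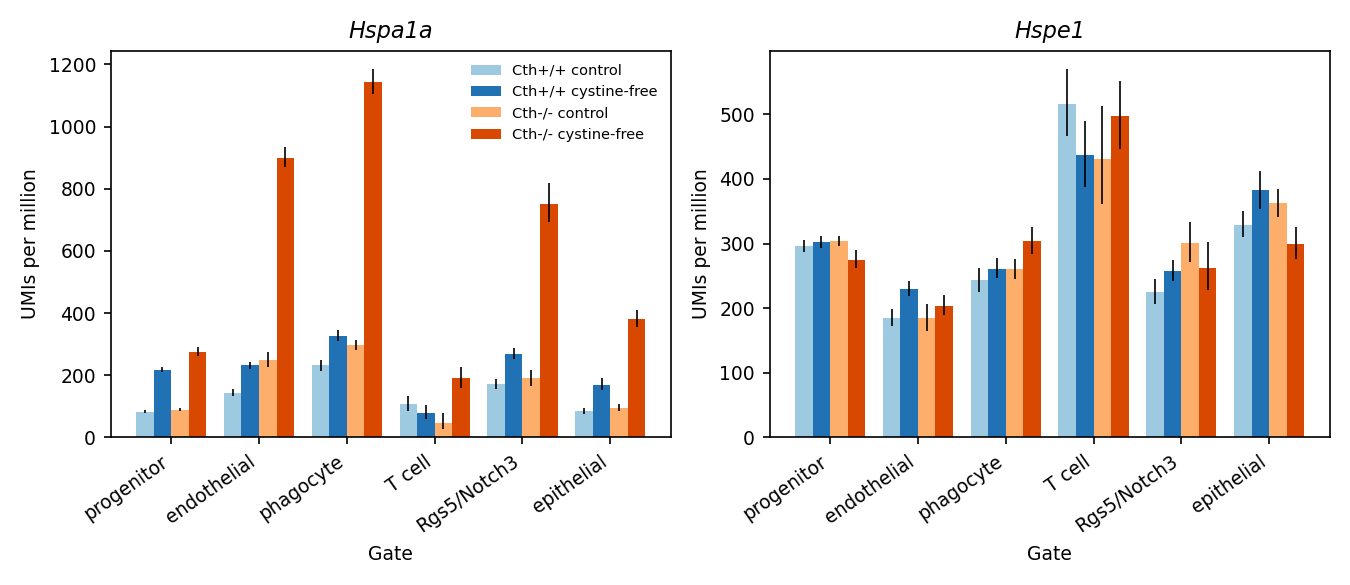
CPM of Hspa1a (left) and Hspe1 (right) in 6 gates and 4 libraries, with 95% counting intervals as black lines; the 2 panels have different vertical scales. Hspa1a reaches 1144.5 in phagocytes of the Cth-/- cystine-free library, where Hspe1 is 304.4 against 260.7 in Cth-/- control.

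Hspa8 encodes the constitutive cytosolic Hsp70 and had the highest level of the 10 in every library over all barcodes. UMIs come from 3' ends and are not scaled to length. It stood at 1054.5, 1173.3, 1100.9 and 1894.6 CPM, so that the first 3 libraries lay close together and the Cth-/- cystine-free library above them. The log2 ratio of the diet was 0.78 in Cth-/- and 0.15 in Cth+/+. In Cth-/- it was 0.87 (0.84 to 0.91) in progenitors, 0.72 (0.65 to 0.78) in endothelial barcodes and 0.62 (0.57 to 0.67) in phagocytes, but 0.22 in T cells and 0.28 in epithelial barcodes. The difference between the 2 Cth-/- libraries, in CPM, was larger for Hspa8 than for Hspa1a.

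Hsph1 encodes Hsp110, a nucleotide exchange factor that also holds unfolded protein. It was the least abundant of the 10, with 16.8, 24.1, 19.6 and 58.7 CPM over all barcodes. The Cth-/- cystine-free library was highest in all 6 gates, but in the Rgs5/Notch3 gate the log2 ratio to the Cth+/+ cystine-free library turned to -0.0109 when thinned and to -4.03 in barcodes of that gate alone. In endothelial barcodes the 4 values were 15.6, 26.2, 19.6 and 80.5, a log2 ratio of the diet of 1.99 (1.51 to 2.61) in Cth-/- and 0.71 (0.33 to 1.17) in Cth+/+. In epithelial barcodes they were 13.7, 18.5, 15.4 and 23.7, and the interval of the ratio in Cth-/- reached down to -0.003.

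Dnajb1 and Dnaja1 encode J-domain proteins that bring clients to Hsp70, and they differed from each other by gate. Dnajb1 was 141.2, 155.2, 140.4 and 305.5 CPM over all barcodes, with log2 ratios of the diet of 1.12 in Cth-/- and 0.14 in Cth+/+. In endothelial barcodes it was 189.4, 162.5, 277.7 and 403.8, so that Cth-/- control was already above both Cth+/+ libraries, and the ratio of 0.54 fell below 1.5-fold. In phagocytes (1.35), epithelial barcodes (1.40) and progenitors (1.18) the ratio was larger, and in T cells it was 0.04 (-0.48 to 0.59). Dnaja1 was 310.2, 332.5, 334 and 571 over all barcodes, and its ratio in Cth-/- was 0.90 in phagocytes, 0.69 in progenitors, 0.62 in endothelial barcodes, 0.38 in epithelial barcodes and 0.29 in T cells.

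Hsp90aa1 encodes the inducible form of cytosolic Hsp90. Over all barcodes it was 370.1, 378.5, 401.8 and 753.2 CPM, the first 3 libraries within a narrow band. In progenitors it was 369.3, 360.5, 373.3 and 763.9, a log2 ratio of 1.03 (0.98 to 1.09) in Cth-/- and -0.03 (-0.09 to 0.02) in Cth+/+. In this gate Hsp90aa1 thus stood at a like level in both Cth+/+ libraries, while Hspa1a did not. The ratio in Cth-/- was 0.86 in endothelial barcodes, 0.95 in phagocytes, 0.61 in T cells and 0.43 in epithelial barcodes.

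Hspb1 encodes Hsp27, a small heat shock protein that holds unfolded proteins and binds actin. It differed widely between gates: medians over the libraries were 1039.3 CPM in endothelial, 819.8 in Rgs5/Notch3 and 527.5 in epithelial barcodes, against 83.6 in progenitors, 55.3 in phagocytes and 46.1 in T cells. The ranges of epithelial barcodes and progenitors did not overlap. Over all barcodes it was 288.9, 330.9, 163.1 and 606.4, and the share of endothelial barcodes was 19.4%, 18.2%, 9.13% and 23.9% in the same libraries. The log2 ratio of the diet in Cth-/- was 1.89 over all barcodes and less within the gates: 1.04 (0.96 to 1.12) in endothelial barcodes, 0.96 in epithelial barcodes and 1.55 in progenitors. Over the 4 libraries Hspb1 ran from 953 to 1957 CPM in endothelial barcodes, from 51 to 151 in progenitors and from 47.2 to 128 in phagocytes. The part of RNA from other cells in the Hspb1 values of progenitors and phagocytes was not tested. On the control diet Hspb1 was lower in Cth-/- over all barcodes (-0.82) and at a like level within endothelial barcodes, 972.6 in Cth+/+ and 953.1 in Cth-/-.

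Hspd1 and Hspe1 encode mitochondrial Hsp60 and its lid Hsp10, and they did not follow the cytosolic chaperones. Hspe1 was 286.9, 283.1, 300.2 and 321.7 CPM over all barcodes, and its log2 ratio of the diet in Cth-/- lay between -0.27 and 0.22 in the 6 gates. In progenitors it was 295.9, 302.3, 303.9 and 275.2, so that the Cth-/- cystine-free library was the lowest, where it was the highest for the other 9. T cells had the most Hspe1 in all 4 libraries, 516.3, 436.5, 431.4 and 496.8, a range that did not overlap with that of any other gate. Hspd1 was 73.3, 71.4, 75.5 and 102.8 over all barcodes, a ratio of 0.44 in Cth-/-. Within the gates its ratio lay between -0.63 and 0.26, the lowest in epithelial barcodes, which had 110.3 on the control and 70.7 on the cystine-free diet.

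In 1 library, Cth-/- on the cystine-free diet, barcodes rich in adipocyte RNA raised the level of the mitochondrial pair over all barcodes. The others held 0, 1 and 4 barcodes with at least 5 UMIs of Adipoq. The 4, in Cth-/- control, had 2 UMIs of Hspe1 and 3 of Hspd1, too few to read. In the Cth-/- cystine-free library, the barcodes rich in Adipoq numbered 62 and held 757.9 CPM of Hspe1 and 323.4 of Hspd1, more than any gate. They held 216.9 of Hspa1a and 326.1 of Hsp90aa1, less than the library as a whole. Without these barcodes the log2 ratio of Hspd1 over all barcodes in Cth-/- was 0.09 and that of Hspe1 -0.12, while Hspa1a was 2.11 and Hsp90aa1 0.99. Leaving them out thus widened the gap between the 2 compartments. This rule for barcodes was chosen after the data were seen.

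**Figure D3:**
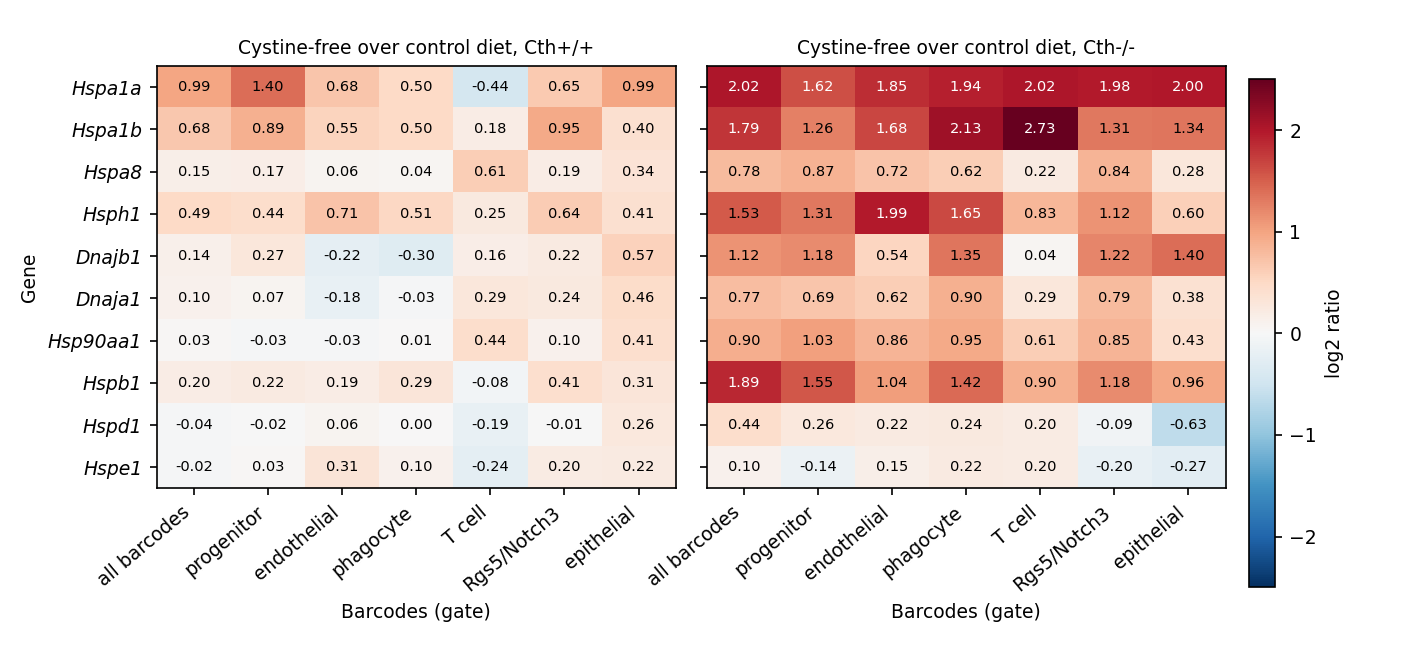
Log2 ratio of cystine-free over control diet for each chaperone (rows) over all barcodes and in 6 gates (columns), in Cth+/+ (left) and Cth-/- (right); red is higher on the cystine-free diet. The upper 8 rows are red in Cth-/-, from 0.04 to 2.73, and the 2 mitochondrial rows lie between -0.63 and 0.44.

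In Cth+/+ mice the diet went with higher inducible Hsp70 and little else among the 10. Over all barcodes 2 were at least 1.5-fold higher, Hspa1a and Hspa1b (1.1% of 8849 measured genes were higher, 2.36% lower), and 0 were lower. The same 2 genes were higher in progenitors (1.04%), with Hspa1b at 68, 126.6, 64.7 and 156.2 CPM in the 4 libraries. In endothelial barcodes Hspa1a and Hsph1 were (2.39%), and in the Rgs5/Notch3 gate Hspa1a, Hspa1b and Hsph1 (4.99%). In phagocytes 0 were (2.78%), although Hspa1a, Hspa1b and Hsph1 had log2 ratios of 0.50 to 0.51. In T cells it was Hspa8 (16.7%) and in epithelial barcodes Hspa1a (10.7%). The medians of the 10 lay between 0.07 and 0.40. The ratio of Hspa1a+Hspa1b together was 1.19 (1.12 to 1.28) in Cth+/+ progenitors and 1.49 (1.41 to 1.57) in Cth-/- progenitors, while in phagocytes it was 0.50 and 2.01.

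Between genotypes on the control diet, the chaperones differed little over all barcodes (median log2 ratio of the 10, 0.09) and in progenitors (0.03). The median was 0.36 in endothelial barcodes, 0.23 in the Rgs5/Notch3 gate, 0.16 in phagocytes and in epithelial barcodes, and 0.13 in T cells. Medians of all genes lay between -0.06 and 0.08. Over all barcodes 0 of 10 were at least 1.5-fold higher in Cth-/- (1.76% of genes) and 1 was lower, Hspb1 (4.72%). In progenitors 0 were higher (0.787%) and Hspb1 was lower (1.38%), at 51 against 77.3 CPM (-0.59), and this size was not reached under 7 alternatives, a pseudocount of 10 and thinning among them. In endothelial barcodes Hspa1a (0.79) and Hspa1b (0.92) were higher in Cth-/- (6.03%), and in phagocytes (3%) and epithelial barcodes (5.58%) 0 were. The Rgs5/Notch3 gate had 2 higher (9.78%), Hspa1b and Hsph1. In T cells Dnajb1 was higher (22.7%), and Hspa1a (-1.20) and Hspa1b (-1.42) were lower (19%), so that the members' counts were near those of all genes.

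On the cystine-free diet the libraries of the 2 genotypes were further apart. Over all barcodes 8 of 10 were at least 1.5-fold higher in Cth-/- (9.46% of genes) and 0 lower (8.67%). Endothelial barcodes (11%) and phagocytes (10.3%) had 8 as well, with Hspa1a at 1.95 and 1.80, and the Rgs5/Notch3 gate had 7 (17.9%). In progenitors 6 were higher (11.1%): Hsph1 (1.00), Hsp90aa1 (1.08), Dnajb1 (0.80), Hspa8 (0.79), Hspb1 (0.75) and Dnaja1 (0.67). There Hspa1a was 0.34 and Hspa1b 0.30. T cells had 4 higher (16.5%) and epithelial barcodes 3 (12.7%).

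At equal depth, a larger share of barcodes carried inducible Hsp70 in the Cth-/- cystine-free library in every gate. After each barcode was thinned to 1000 UMIs, 12.8%, 20.8%, 12.8% and 23.9% of progenitor barcodes had at least 1 UMI of Hspa1a or Hspa1b in the 4 libraries. The shares were 16.1%, 19.7%, 22.4% and 45.8% (42.6% to 49.0%, Clopper-Pearson) in endothelial barcodes and 20.6%, 27.7%, 28.4% and 57.9% (54.4% to 61.4%) in phagocytes. T cells had 9.09%, 9.33%, 3.64% and 14.7%, the lowest shares in each library. Epithelial barcodes had 14.8%, 25.7%, 13.3% and 34.8%, and the Rgs5/Notch3 gate 21%, 27.2%, 31.5% and 47.1%. Intervals of the 2 cystine-free libraries overlapped in progenitors (19.4% to 22.3% in Cth+/+, 21.8% to 26.2% in Cth-/-). They also did in T cells (5.62% to 14.3%, 10.4% to 19.9%) and epithelial barcodes (18.9% to 33.4%, 26.8% to 43.5%). In the Rgs5/Notch3 gate those of the 2 Cth-/- libraries did (24.4% to 39.2%, 37.8% to 56.4%). Without thinning the shares were 38.7%, 47.1%, 46.8% and 76.2% in phagocytes and 29.7%, 44.1%, 39.1% and 62.6% in endothelial barcodes. In progenitors they were 30.5%, 47.6%, 36.9% and 45.3%, so that the order of the 2 cystine-free libraries turned. Thinning left out 944, 681, 643 and 447 shallower barcodes of the 4 libraries. No gate here is made of cells known to lack Hsp70, so a background of free RNA could not be read from a cell type without the gene, and its part in these shares was not tested.

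**Figure D4:**
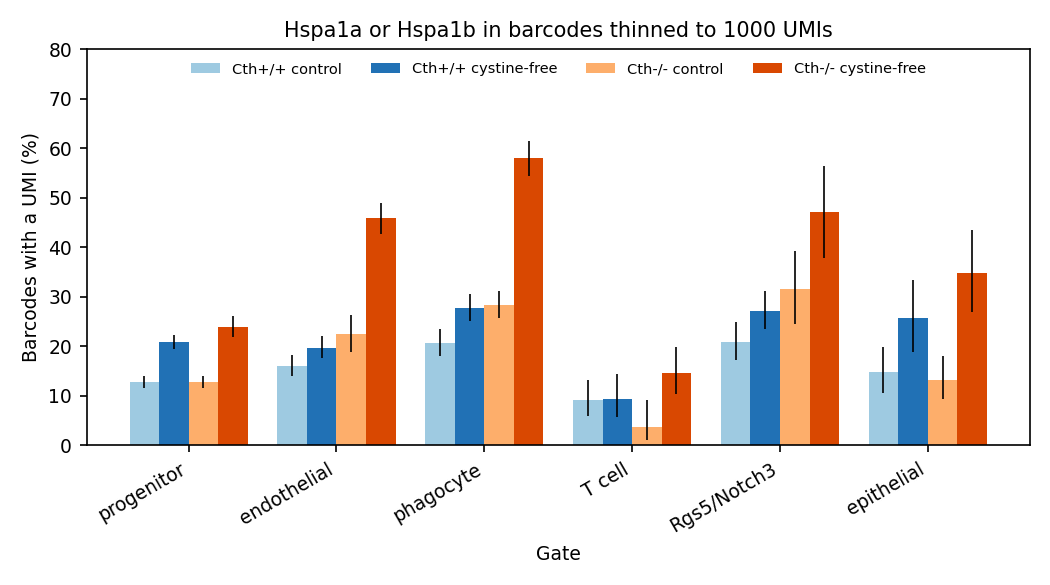
Share of barcodes (%) with at least 1 UMI of Hspa1a or Hspa1b after thinning to 1000 UMIs, by gate and library, with 95% Clopper-Pearson intervals (counting error only). Phagocytes of the Cth-/- cystine-free library reach 57.9%, and its T cells 14.7%.

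In phagocytes of the Cth-/- cystine-free library, Hsp90aa1, Dnaja1 and Dnajb1 were higher in the barcodes with inducible Hsp70. These barcodes come from 1 library and are not replicates, and other gates and libraries are not given. In the Cth-/- cystine-free library, after thinning, the 449 phagocyte barcodes with an Hspa1a or Hspa1b UMI had 1394.2 CPM of Hsp90aa1 and the 326 without had 607.4, a ratio of 2.30 (1.95 to 2.71). For Dnaja1 the ratio was 2.05 (1.69 to 2.49), for Dnajb1 2.18 (1.68 to 2.84) and for Hspe1 1.18 (0.89 to 1.58). Immediate early genes were higher in the same barcodes, with a ratio of 1.66 (1.61 to 1.70).

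Immediate early genes, which respond within minutes to stress and to the digestion of tissue, moved with the chaperones in some gates and not in others. In progenitors 20 such genes summed to 26284, 28243, 26693 and 38251 CPM. With the diet in Cth-/- 9 genes of the list were past 1.5-fold upward there (8.31% of genes) and 1 downward (9.95%). In epithelial barcodes 11 were past it upward (9.6% of genes) and 0 downward (10.4%), with sums of 14332 and 24567 in the Cth-/- libraries. In endothelial barcodes the sums were 27185 and 27252 in the Cth-/- control and cystine-free libraries, and Hspa1a was 249.2 and 900.4. Between these libraries 0 of 20 genes were at least 1.5-fold apart (5.32% of genes were higher and 10.1% lower). In Cth+/+ the endothelial sums were 21154 and 18939, below both Cth-/- libraries. Between genotypes, 5 of 20 were at least 1.5-fold higher in Cth-/- endothelial barcodes on the control diet (6.03% of genes) and 11 on the cystine-free diet (11%), and 0 lower, in the same comparisons in which endothelial Hspa1a and Hspa1b were higher. In T cells the sum was lower on the cystine-free diet, 8710 against 10081, and Hspa1a was higher. Phagocytes had 23304 and 29171. The Rgs5/Notch3 gate had 20158 and 28018, and 68.2% and 83.5% of its barcodes in these libraries also passed the endothelial rule. There Atf3, Btg2, Egr1, Egr2, Fosl1, Jun and Junb were past 1.5-fold upward (17.5% of genes) and no gene of the list downward (13.6%). Over the 24 values of 6 gates in 4 libraries, after each gate's mean was taken off, Pearson's r with the immediate early sum was 0.93 for Dnajb1, 0.83 for Dnaja1, 0.67 for Hspa1a and -0.32 for Hspe1. These values share libraries and, in part, barcodes, and the part of digestion in the chaperone levels was not tested.

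**Figure D5:**
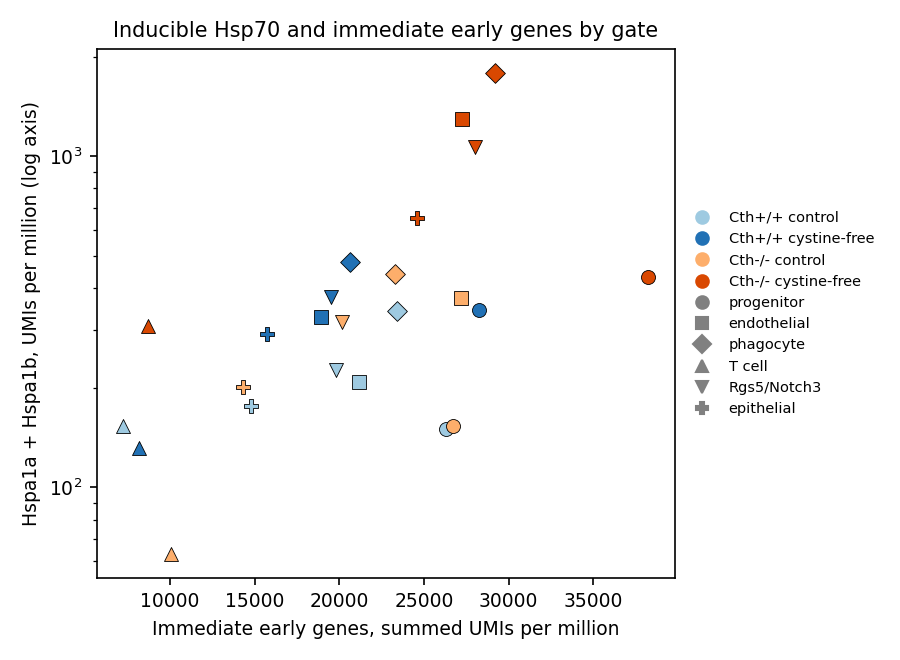
Hspa1a and Hspa1b together (CPM, log axis) against the summed immediate early genes (CPM) in 6 gates (shapes) and 4 libraries (colours). The Cth-/- control and cystine-free endothelial points lie at the same horizontal place, 27185 and 27252, and at 373.3 and 1299.4 vertically.

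Most other chaperones were within 1.5-fold, and of those of the endoplasmic reticulum (ER) several were lower. With the diet in Cth-/- over all barcodes, 6 of 14 measured ER chaperones were past 1.5-fold downward (9.68% of genes) and 0 upward, with a median log2 ratio of -0.49. Serpinh1, the chaperone of collagen, was 258.2 against 884.9 CPM, Pdia6, a disulfide isomerase, 146.5 against 278.7, and Calr, which folds glycoproteins, 270.2 against 434.5. Progenitors made up 36.7% of the barcodes of the Cth-/- cystine-free and 54.6% of the Cth-/- control library. Within progenitors Serpinh1 was 524.6 against 1335.6, a log2 ratio of -1.35 where it was -1.77 over all barcodes. In endothelial barcodes 3 of 14 were lower (10.1%) and 0 higher (median -0.30), and in progenitors 6 were lower (9.95%). In phagocytes 1 was lower, near the share of all genes (8.29%). In progenitors 1 was higher, Dnajb9 (0.59), an ER J-domain protein. Of 7 measured subunits of the cytosolic chaperonin CCT, which folds actin and tubulin, 0 were past 1.5-fold over all barcodes in either direction. The median was -0.02, and 10.4% of genes were higher and 9.68% lower.

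The closest relatives and partners of the 10 were mostly at like levels in the 2 Cth-/- libraries, and so were most measured genes. With the diet in Cth-/- over all barcodes, 10.4% of genes passed 1.5-fold upward and 9.68% downward. Counts of 0 or 1 in lists this short therefore do not set a list apart from all genes. Hsp90ab1, the constitutive Hsp90, was 1226.8 against 1026.3 CPM (log2 ratio 0.26) where Hsp90aa1 was 0.90. Of 13 genes of the HSF and Hsp90 system 1 was at least 1.5-fold higher, Fkbp5, and 0 lower (median 0.11). Of 11 other Hsp70 genes and cofactors Hspa2 was higher and Hspa13 lower (median 0.16), and of 10 other J-domain genes Dnaja4 was higher (median 0.27). These 4 had at most 31.1 CPM and are named after their values were seen. Bag3, a cofactor of Hsp70 in autophagy, was 84.8 against 72.9 over all barcodes and 129.1 against 86.9 in progenitors. Of 5 other small heat shock proteins 2 were measured over all barcodes, with 0 past that size (median -0.13). Of these, Hspb8, which works with Bag3, was 177.6 against 92.9 in progenitors (0.93). Cryab, an alpha-crystallin, was lower in endothelial barcodes, 10.8 against 30.3 (-1.40), and in the Rgs5/Notch3 gate (-0.89). In T cells Cryab was higher, 17 against 0 CPM. Its endothelial and T cell values were under the 50 CPM used for naming list members. Of 6 genes of mitochondrial protein quality control 1 was higher, Grpel1 (0.70), the exchange factor of mitochondrial Hsp70, and that Hsp70 itself, Hspa9, was 151.3 against 109 (0.47). Within the gates Grpel1 was 0.45 in endothelial barcodes and -0.62 in T cells and was at least 1.5-fold higher in 0 of the 6. Hspa9 was past that size upward in T cells, 111.8 against 49.8 CPM (log2 ratio 1.15, 0.36 to 2.07). In progenitors Hspa9 was 126.7 against 95.7 CPM. Its log2 ratio was 0.09 in phagocytes, -0.03 in the Rgs5/Notch3 gate and -0.28 in endothelial barcodes.

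Some genes outside the 10 had a pattern like that of Hspa1a. Among 2325 genes with at least 50 CPM in at least 12 of the 24 gate and library values, Pearson's r of log2 levels with Hspa1a was 0.77 for Plin2, a coat protein of lipid droplets, 0.76 for Pcf11, a factor of RNA 3' end formation, and 0.74 for Txnrd1, cytosolic thioredoxin reductase. Dhrs3, Eif5, Cdk9, Hsd17b11, Stat3 and Btg2 followed with 0.72 to 0.73. Within the 10, r with Hspa1a was 0.91 for Hspa1b, 0.87 for Hsp90aa1, 0.86 for Hspa8 and 0.81 for Dnajb1. It was 0.64 for Dnaja1, 0.63 for Hsph1 and 0.40 for Hspb1, against -0.01 for Hspd1 and -0.47 for Hspe1. These values of r mix differences between gates with differences between libraries. After each gate's mean was taken off, r was 0.95 for Hspb1's neighbour in pattern Hspa1b, 0.91 for Hspb1, 0.90 for Hsph1 and 0.82 for Dnaja1. It was then 0.31 for Hspd1 and 0.21 for Hspe1. The points share libraries and barcodes, so these are descriptions of likeness.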

How the data were processed

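The authors deposited whole-number UMI counts for the barcodes already called as cells. Their software was Cell Ranger 3.0.0, as the file headers record, and their genome build was mm10, per the submitters' processing notes. All 10 genes and every list were chosen with earlier results of these data known. Counts were summed per library over all deposited barcodes and over the barcodes passing each of 6 rules, and divided by the total UMIs of those barcodes, times 1000000 (CPM). No barcode was filtered, and doublets were not called: barcodes passing 1 rule only were an alternative. Log2 ratios used a pseudocount of 1 CPM, and their conditional binomial intervals do not. Genes under 10 CPM in both libraries were not measured, and a gene was counted at 1.5-fold. Other chaperones were described by lists, with up to 5 members named per list by the largest ratio among those with at least 50 CPM. The genes most like Hspa1a were named by Pearson's r. Results of 1 list and 1 of these genes are not reported here. Alternatives were a filter on barcodes (300 genes, 500 UMIs, 10% mitochondrial), another denominator, equal weights, a pseudocount of 10, no minimum level, centring, leaving out the deepest 1%, thinning to 1000 UMIs and endothelial barcodes without lymphatic ones. The calculation was tested on simulated data. Genome stretches came from RefSeq (GRCm38.p6) and gene starts and transcripts from GENCODE for GRCm38. Python packages were numpy 2.4.6, scipy 1.17.1, pandas 2.3.3 and matplotlib 3.10.9.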

Additional observations from a re-analysis of the deposited data

How the results depend on the processing

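No paired analysis was possible because each group had 1 library. The counts of chaperones at least 1.5-fold apart stayed within 1.5 times the reported count in 275 of 317 recomputed values, and 42 moved. Of the 50 ratios past 1.5-fold for the diet in Cth-/-, 37 kept that size under every alternative, as did 8 of 11 for the diet in Cth+/+, 6 of 9 for Cth loss on the control diet and 35 of 44 on the cystine-free diet. All counts over all barcodes stayed, also without the adipocyte barcodes. For the diet in Cth-/-, T cells had 3 higher with equal weights. The Rgs5/Notch3 gate had 5 without the deepest 1% of barcodes, 5 when thinned and 3 in barcodes of 1 gate only. The 1 lower gene in epithelial barcodes became 0 with a pseudocount of 10 and when thinned. For the diet in Cth+/+, endothelial barcodes had 1 higher with a pseudocount of 10 and in barcodes of 1 gate. Phagocytes had 1 with equal weights, 3 when centred, and 1 in barcodes of 1 gate and when thinned. T cells had 2 with equal weights and 3 in barcodes of 1 gate and when thinned. Epithelial barcodes had 2 with the filter, with equal weights and without the deepest 1%, 3 in barcodes of 1 gate and 4 when thinned. For Cth loss on the control diet, the 1 lower gene in progenitors, Hspb1, became 0 with the filter, equal weights, a pseudocount of 10, centring, without the deepest 1%, in barcodes of 1 gate and when thinned. Endothelial barcodes had 4 higher with equal weights, and phagocytes 1 in barcodes of 1 gate. T cells had 2 with equal weights and in barcodes of 1 gate, and 0 with a pseudocount of 10 and when centred. The Rgs5/Notch3 gate had 1 with a pseudocount of 10, 4 without the deepest 1% and 6 when thinned, and epithelial barcodes 1 with equal weights, without the deepest 1% and when thinned. For Cth loss on the cystine-free diet, T cells had 2 with equal weights, the Rgs5/Notch3 gate 4 in barcodes of 1 gate and epithelial barcodes 6 when thinned. Of 2780 recomputed log2 ratios, 8 reversed. In barcodes of the Rgs5/Notch3 gate alone, where 112 of 121 barcodes of the Cth-/- cystine-free library fall away, the diet in Cth-/- gave -0.38 for Hspa1a and -5.24 for Hsph1, and the diet in Cth+/+ gave -0.92 for Hsph1. Cth loss on the cystine-free diet gave -0.14 for Hspa1a, -4.03 for Hsph1 and -0.0328 for Hspa8 there. When thinned, Hsph1 in that gate was -0.0109 for Cth loss on the cystine-free diet and Dnajb1 in T cells -0.15 for Cth loss on the control diet. Shares of barcodes with an Hspa1a or Hspa1b UMI were higher with the depth kept, so only shares at equal depth compare libraries. In the order used in the report they were, after thinning to 2000 UMIs, 23.3%, 30.1%, 25.5% and 46.9% in all barcodes, 21%, 31.3%, 20.9% and 34.6% in progenitors, 25.7%, 30.4%, 38.9% and 58.5% in endothelial barcodes and 32.9%, 35.6%, 37.5% and 67.9% in phagocytes. They were 14.6%, 13.2%, 11.5% and 23.3% in T cells, 29.3%, 36.7%, 46.2% and 67.6% in the Rgs5/Notch3 gate and 23.4%, 29.6%, 30.6% and 65% in epithelial barcodes. Not thinned, a setting chosen after seeing the data, they were 29.1%, 40.8%, 36.4% and 53.8% in all barcodes, 30.5%, 47.6%, 36.9% and 45.3% in progenitors, 29.7%, 44.1%, 39.1% and 62.6% in endothelial barcodes and 38.7%, 47.1%, 46.8% and 76.2% in phagocytes. They were 17.5%, 18.4%, 7.76% and 28.3% in T cells, 41.5%, 58.5%, 64.1% and 76% in the Rgs5/Notch3 gate and 61.1%, 62.3%, 56.2% and 84.7% in epithelial barcodes. The cause of these moves was not tested beyond the fewer barcodes. Hsph1 has too few UMIs in the small gates for its ratio to be read, and 1 library per group leaves the spread between animals unknown.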

Other observations

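Barcodes that passed none of the 6 rules also had more Hspa1a in the cystine-free library of Cth-/- mice. In the Cth-/- control library 891 such barcodes held 167.6 CPM of Hspa1a, and in the Cth-/- cystine-free library 648 held 282.8. Without the barcodes rich in Adipoq the latter was 400.7. Hspe1 in these barcodes was 309.4 in the control library and 537.4 in the cystine-free one, where it was 258.6 without the Adipoq barcodes. Mitochondrially encoded genes made up 7.23% and 17.4% of the UMIs of the ungated barcodes in these libraries. In all 6 gates the mitochondrial share was lower on the cystine-free diet in Cth-/-, for example 2.04% against 3.15% in progenitors.

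In the T cell gate, a transcript of another lineage differed widely between the Cth-/- libraries, and others did not. Igkc, an immunoglobulin light chain, was 9.96 CPM in the control and 1895 in the cystine-free library, while the B cell genes Cd79a and Ms4a1 were 7.08 and 0 on the cystine-free diet. Dcn was 743.3 and 751.5 in the same 2 libraries. In progenitors Igkc was 18.4 and 112.2 in Cth-/- and 50.8 and 396.7 in Cth+/+, so its difference was not particular to the T cell gate or to Cth-/-. The 5 T cell markers summed to 1364 and 1656 in the T cell gate. The part of RNA from other lineages in the chaperone values of this gate was not tested.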
